A study of Mus musculus with 18 samples.

Results

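The Hippo pathway genes described here are Mob1a, Mob1b, Lats1, Lats2, Stk3, Yap1, Wwtr1, Tead1, Tead2 and Tead3, which are 10 of the 38243 genes in the count tables. They were chosen by symbol, with the genotype difference of Mob1b in Meckel's cartilage (MC) as the starting point, so the genotype comparison in MC helped to select them and is given below as values and counts, with no p and nothing read from the counts. The study asked how the Apert syndrome mutation S252W of Fgfr2, a fibroblast growth factor receptor, changes gene expression in the developing mandible. RNA was measured by sequencing in 18 libraries from 6 female C57BL/6 embryos at embryonic day 16.5, of which 3 carried 1 mutant allele (Fgfr2+/S252W) and 3 were littermates without it (Fgfr2+/+). Mandibular bone, MC and mandibular condylar cartilage were cut from frozen sections with a laser, which makes 6 groups of 3 libraries, and the library codes tie the 3 tissues to 1 embryo each. The RNA was amplified before sequencing, and the libraries of a group are taken as separate embryos.

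The Hippo pathway is a chain of kinases that limits tissue growth. The MST kinases, Stk3 among them, phosphorylate the LATS kinases Lats1 and Lats2 and the MOB1 adaptors Mob1a and Mob1b, and the active complex of LATS and MOB1 phosphorylates the coactivators Yap1 and Wwtr1 (also called TAZ), which keeps them out of the nucleus. Unphosphorylated Yap1 and Wwtr1 enter the nucleus and switch on genes such as Ccn1 and Ccn2 through the TEAD DNA-binding proteins, here Tead1, Tead2 and Tead3. In the skeleton the pathway is known to act on the proliferation and maturation of chondrocytes and on osteoblasts, and since it works mainly through phosphorylation, transcript levels do not measure its activity.

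Mob1a and Mob1b encode near-identical adaptor proteins, so it matters whether reads tell the transcripts apart. The first 150 coding bases of each are shown for that reason, with the 34 bases at which they differ in capitals (Ensembl transcripts on GRCm38, 5′ to 3′).
Mob1a: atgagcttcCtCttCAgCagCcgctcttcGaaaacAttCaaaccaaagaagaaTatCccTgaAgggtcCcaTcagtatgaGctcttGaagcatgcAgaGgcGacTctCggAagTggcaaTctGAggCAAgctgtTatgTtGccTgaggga
Mob1b: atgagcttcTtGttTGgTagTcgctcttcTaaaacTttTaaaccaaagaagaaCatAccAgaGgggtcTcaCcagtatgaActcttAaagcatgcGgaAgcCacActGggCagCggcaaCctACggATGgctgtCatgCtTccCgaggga
Over 648 aligned coding bases the transcripts were 79.6% identical, and the longest run they shared was 20 bases, far shorter than a read of 100 bases. Mob1a lies at chr6:83326016-83343776 and Mob1b at chr5:88720855-88762058, both on the plus strand. No window of 100 bases in the transcripts of Mob1a, Mob1b, Lats1, Stk3, Wwtr1, Tead1, Tead2 or Tead3 occurred in a transcript of another gene. Of the windows of Lats2, 42.3% also occurred in Gm49361, a gene model of a newer annotation that the count tables do not list, and 18 windows of Yap1 (0.421%) occurred in Gm20416. The other genes lie at chr10:7681209-7716458 (Lats1), chr14:57689662-57758388 (Lats2), chr15:34875496-35155806 (Stk3), chr9:7931999-8004596 (Yap1), chr3:57455649-57575910 (Wwtr1), chr7:112679318-112906807 (Tead1), chr7:45215753-45233635 (Tead2) and chr17:28331671-28350805 (Tead3). Reads were counted without regard to strand over all exons of a gene, untranslated regions included.

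Library totals on genes ran from 8218548 to 15585778 fragments. The levels given below, CPM and FPKM (CPM per kilobase of exon), are counts relative to the total of the genes kept times a TMM factor, which sets libraries on a common scale by the genes most alike between them. The factors were 0.491 to 1.09 in MC, 1.202 to 1.48 in bone and 0.896 to 1.27 in condylar cartilage, so levels set across tissues rest on this scaling. Outside mitochondrial genes and Gm42418 the counts were 6207416 to 11008126 in bone, 4569852 to 8365856 in condylar cartilage and 2309734 to 4960691 in MC. The median spread within groups (SD of log2 CPM) was 0.218 in bone, 0.318 in condylar cartilage and 0.480 in MC, the largest. The part of the counts in this spread was not tested. The tissue labels were checked against markers fixed as lists. The summed level of 10 chondrocyte markers was 32293 to 39634 CPM in condylar cartilage and 230.1 to 589.6 CPM in bone, without overlap. In MC it was 448.2, 3678 and 3804 in the Fgfr2+/+ libraries and 10283, 2509 and 2458 in the Fgfr2+/S252W libraries, all below condylar cartilage, so the chondrocyte markers were low for a tissue labelled as cartilage. Replicate 1 of Fgfr2+/+ MC, at 448.2 CPM, lay inside the range of bone. It also had the highest summed osteoblast (4031 CPM) and osteoclast (271.5 CPM) markers of the MC libraries, both below every bone library. The Fgfr2+/+ MC libraries also agreed least with their own group (mean correlation 0.871 to 0.881, against 0.932 to 0.988 in the other groups). All 10 genes passed the filter on low values, which kept the 11469 genes that exceeded 1 FPKM in 50% or more of the libraries. For the filter FPKM were taken before TMM scaling, relative to the library total, and on that scale Tead3 was above 1 in 13 libraries and the others in all 18.

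Mob1b was lower in Fgfr2+/S252W than in Fgfr2+/+ MC, the difference by which these genes were chosen. Its level was 8.26, 6.58 and 8.93 FPKM in the 3 Fgfr2+/+ MC libraries and 2.85, 3.44 and 3.40 FPKM in the 3 Fgfr2+/S252W MC libraries. The groups did not overlap, and the Fgfr2+/S252W libraries were the lowest of all 18. The counts behind these levels were 605, 234 and 324 fragments against 145, 104 and 132. The difference was -1.31 on the log2 scale (SE 0.23), a 2.48-fold lower level, and lay between -1.41 and -1.20 with any 1 library left out. In this contrast 0% of the 11469 genes passed an adjusted p of 0.05 by limma, against 0.785% with edgeR, 3.69% with DESeq2 and, by limma, 0.174% without a filter beyond 1 count, 1.21% without replicate 2 and 0.370% without replicate 3 of Fgfr2+/+ MC, and 13.4% had groups that did not overlap. Lats1 was also lower, with 18.6, 23.2 and 20.01 FPKM in Fgfr2+/+ and 12.4, 14.6 and 14.2 FPKM in Fgfr2+/S252W MC (log2 difference -0.58, SE 0.15). The groups did not overlap for Lats1, which needs a MOB1 adaptor for full kinase activity, nor for Tead1, which was higher (0.37, SE 0.18). Tead3 was higher with overlap (0.84, SE 0.37). The other 6 genes differed by between -0.14 and 0.10. With any 1 library left out Lats1 lay between -0.64 and -0.48, Tead1 between 0.18 and 0.49 and Tead3 between 0.44 and 1.07, while the other 6 changed sign, within -0.41 and 0.33. Summed macrophage markers (7 genes) were 26.0 to 76.3 CPM in Fgfr2+/+ and 89.3 to 115.4 CPM in Fgfr2+/S252W MC, and summed osteoclast markers (7 genes) were 94.1 to 271.5 CPM and 67.1 to 77.7 CPM. Neither pair of ranges overlapped. The median log2 difference of 9 chondrocyte markers was 1.10, beside 0.026 for all genes, and the summed levels of that list overlapped. The part of these markers in the Mob1b difference was not tested. Because a library holds the RNA of many cells, fewer cells of a type and less RNA per cell cannot be told apart.

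**Figure D1:**
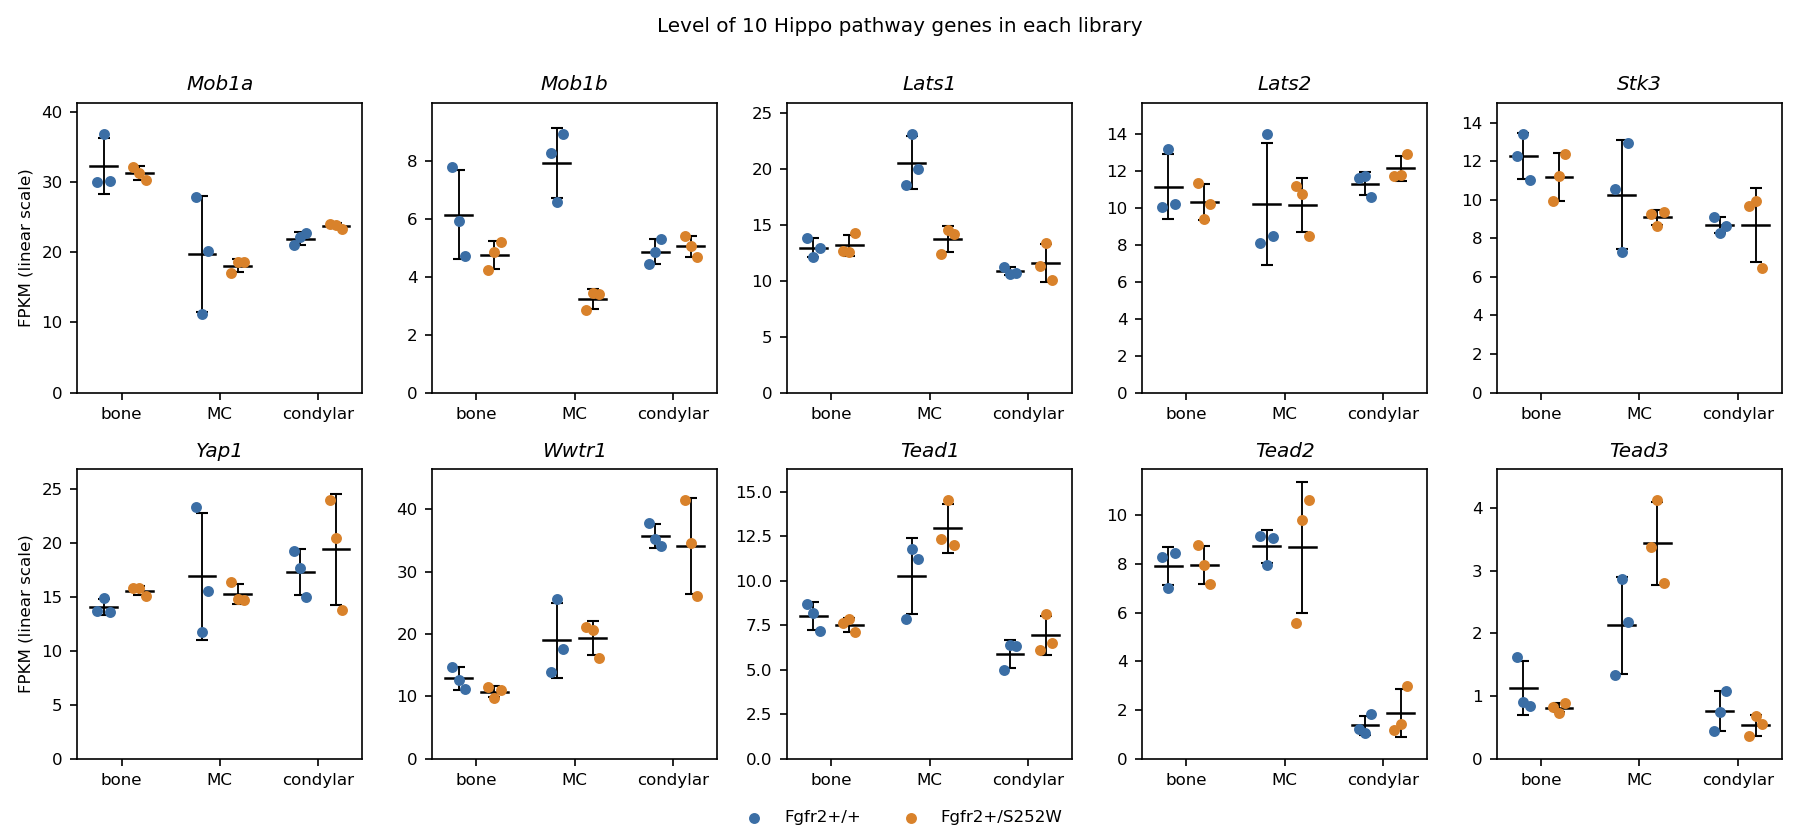
Level of the 10 genes (TMM-scaled FPKM, linear axis from 0) in each library, by tissue and genotype; points are libraries, horizontal bars are means of 3 libraries and whiskers are the SD. Mob1b separates the genotypes in MC (6.58 to 8.93 against 2.85 to 3.44 FPKM), and Wwtr1 and Tead2 separate condylar cartilage from bone.

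Outside MC the genotypes overlapped in Mob1b. Its level was 7.78, 5.91 and 4.72 FPKM in Fgfr2+/+ bone, 4.23, 4.84 and 5.19 in Fgfr2+/S252W bone, 4.44, 4.85 and 5.29 in Fgfr2+/+ condylar cartilage and 5.40, 5.05 and 4.67 in Fgfr2+/S252W condylar cartilage. The genotype difference of Mob1b in bone was -0.34 on the log2 scale (SE 0.17, adjusted p = 0.65 by limma). It lay between -0.52 and -0.15 with any 1 library left out. In condylar cartilage the genotype difference was 0.07 (SE 0.19). Bone and condylar cartilage differed by 0.31 on the log2 scale in Fgfr2+/+ embryos (SE 0.18, adjusted p = 0.20 by limma), or by 0.50 (adjusted p = 0.040) without replicate 3 of Fgfr2+/+ bone, and by -0.10 in Fgfr2+/S252W embryos (SE 0.18, adjusted p = 0.73). The order of its group means ran from Fgfr2+/+ MC (7.92 FPKM) to Fgfr2+/S252W MC (3.23 FPKM), so the highest and the lowest group were the 2 genotypes of 1 tissue, and only the last step of that order, from Fgfr2+/S252W bone to Fgfr2+/S252W MC, was free of overlap. Within embryos Mob1b was lower in bone than in MC in all 3 Fgfr2+/+ embryos (mean log2 difference -0.39) and higher in bone in all 3 Fgfr2+/S252W embryos (0.56). The same held for condylar cartilage against MC (-0.70 and 0.65). The order of the means and these signs rest on the MC values of Mob1b by which the genes were chosen. They restate that difference and were not tested.

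Mob1a was the more abundant adaptor in every library. It was highest in bone, with 29.9, 36.8 and 30.1 FPKM in Fgfr2+/+ and 32.2, 31.3 and 30.3 FPKM in Fgfr2+/S252W embryos. In condylar cartilage it was 20.9, 22.2 and 22.7 FPKM in Fgfr2+/+ and 24.0, 23.8 and 23.3 FPKM in Fgfr2+/S252W embryos, all below bone. In MC it was 27.8, 11.2 and 20.1 FPKM in Fgfr2+/+ and 17.02, 18.6 and 18.5 FPKM in Fgfr2+/S252W embryos. The Fgfr2+/+ MC library at 27.8 FPKM is the replicate with the fewest chondrocyte marker counts (448.2 CPM). By limma Mob1a was higher in bone than in MC in both genotypes (Fgfr2+/+ log2 difference 0.74, SE 0.20, adjusted p = 0.0084; Fgfr2+/S252W 0.80, SE 0.21, adjusted p = 0.0048). In a fit of only the libraries compared the first of these missed the threshold (adjusted p = 0.084), and without replicate 2 of Fgfr2+/+ MC, the library at 11.2 FPKM, it was 0.42 (adjusted p = 0.048). Bone over condylar cartilage was 0.40 in Fgfr2+/S252W embryos (SE 0.19, adjusted p = 0.12). Bone was above condylar cartilage in Fgfr2+/+ embryos (0.55, SE 0.19, adjusted p = 0.028), a call that was lost with edgeR (0.054), with DESeq2 (0.052) and without replicate 2 of bone or replicate 1 or 2 of condylar cartilage (0.064 to 0.11). Without replicate 1 of Fgfr2+/+ MC, Mob1a was higher in condylar cartilage than in MC (0.57, adjusted p = 0.020, against 0.19 and 0.48 with all libraries). Mob1b made up 14.6% of the summed FPKM of both genes in bone and 17.8% in condylar cartilage (means of 6 libraries). In MC, where its values chose the genes, it made up 30.2% in Fgfr2+/+ and 15.1% in Fgfr2+/S252W embryos (means of 3).

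For the comparisons between tissues, the share of all genes that passed is the background against which the 10 genes are read. Between bone and condylar cartilage in Fgfr2+/+ embryos, 4 of the 10 genes were higher in bone and 1 was lower, where 19.4% of the 11469 genes were higher and 18% lower. In Fgfr2+/S252W embryos 1 was higher and 1 lower, with 16.6% and 15.3% of all genes. Comparisons with MC are counted over 9 genes, since the choice of Mob1b rests on its MC values. Between bone and MC 1 was higher in bone and 1 lower in Fgfr2+/+ embryos (18.1% and 15.9% of all genes), and 1 was higher and 3 lower in Fgfr2+/S252W embryos (19.5% and 18.8%). Between condylar cartilage and MC 1 was higher in condylar cartilage and 4 lower in Fgfr2+/+ embryos (22.9% and 22.1%), and 1 was higher and 3 lower in Fgfr2+/S252W embryos (21.3% and 21.3%). Cell type markers moved with these comparisons. All 9 chondrocyte markers that passed the filter were lower in bone than in condylar cartilage in both genotypes, and all 5 osteoclast markers were higher (summed level 958.5 to 2511 CPM in bone and 15.3 to 52.1 CPM in condylar cartilage). Endothelial markers (5 of 5 in both genotypes), macrophage markers (4 of 4 in Fgfr2+/+ and 2 of 4 in Fgfr2+/S252W embryos) and erythroid markers (5 of 5 and 3 of 5) were also higher in bone than in condylar cartilage. Between bone and MC, all 7 osteoblast and all 5 osteoclast markers were higher in bone in both genotypes, 5 of 5 endothelial markers were higher in Fgfr2+/+ and 4 of 5 in Fgfr2+/S252W embryos, and 5 of 9 chondrocyte markers were lower in Fgfr2+/+ and 8 of 9 in Fgfr2+/S252W embryos. Between condylar cartilage and MC, 9 of 9 chondrocyte markers were higher in condylar cartilage in Fgfr2+/+ and 7 of 9 in Fgfr2+/S252W embryos, and in both genotypes 5 of 7 osteoblast markers were higher and 4 of 5 osteoclast and 4 of 4 macrophage markers lower. Their part in the tissue differences of the pathway genes was not tested.

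Among the kinases, Lats1 was highest in Fgfr2+/+ MC. Its level was 13.8, 12.2 and 13.0 FPKM in Fgfr2+/+ bone and 11.3, 10.6 and 10.7 FPKM in Fgfr2+/+ condylar cartilage, all below the 18.6 to 23.2 FPKM of Fgfr2+/+ MC. By limma it was lower in bone than in MC by -0.65 on the log2 scale (SE 0.14, adjusted p = 0.0014) and lower in condylar cartilage by -0.91 (SE 0.14, adjusted p = 3.38e-05), and these calls held in all fits run. In Fgfr2+/S252W embryos, where bone gave 12.7, 12.6 and 14.3 FPKM and condylar cartilage 11.3, 13.4 and 10.1 FPKM, the same differences were -0.06 (SE 0.14, adjusted p = 0.79) and -0.24 (SE 0.15, adjusted p = 0.21). Whether the tissue differences themselves depended on genotype was not tested, since that difference holds the MC contrast that chose the genes.

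Lats2, the other LATS kinase and itself a known target of Yap1, varied least of the 10 genes. Its group means lay between 10.1 and 12.1 FPKM, a range of 1.198-fold, and its libraries spanned 8.11 to 13.997 FPKM. It passed the threshold in no comparison. Without replicate 2 of Fgfr2+/+ MC, the library at 13.997 FPKM, Lats2 was higher in condylar cartilage than in MC in Fgfr2+/+ embryos (log2 difference 0.48, adjusted p = 0.035, against 0.22 and 0.35 with all libraries).

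Stk3, the MST kinase at the head of the chain, had group means of 8.67 to 12.2 FPKM. It was 12.3, 13.4 and 11.04 FPKM in Fgfr2+/+ bone and 9.10, 8.27 and 8.64 FPKM in Fgfr2+/+ condylar cartilage, without overlap. The difference of 0.49 on the log2 scale (SE 0.19) passed the threshold by limma (adjusted p = 0.047), but missed it in 6 of 10 other settings, namely with edgeR, with DESeq2, with RLE factors, without mitochondrial genes and Gm42418 and with either other filter (0.053 to 0.077), and without replicate 1 or 2 of bone or any 1 of the condylar libraries (0.084 to 0.13). In Fgfr2+/S252W embryos, at 9.94, 11.2 and 12.4 FPKM in bone and 9.67, 9.91 and 6.47 FPKM in condylar cartilage, it was 0.35 (SE 0.19, adjusted p = 0.17).

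The coactivators behaved differently from each other. Yap1 had group means of 14.1 to 19.4 FPKM and passed the threshold in no comparison. Its level was 13.6, 14.9 and 13.6 FPKM in Fgfr2+/+ bone, 23.3, 11.8 and 15.6 FPKM in Fgfr2+/+ MC and 19.3, 17.7 and 15.0 FPKM in Fgfr2+/+ condylar cartilage. In Fgfr2+/S252W embryos it was 15.9, 15.8 and 15.1 FPKM in bone, 16.4, 14.8 and 14.7 FPKM in MC and 24.0, 20.4 and 13.8 FPKM in condylar cartilage. The library at 13.8 FPKM, replicate 3, had the fewest counts outside mitochondrial genes and Gm42418 among the condylar libraries. Without it Yap1 was lower in bone than in condylar cartilage (log2 difference -0.52, adjusted p = 0.044) and higher in condylar cartilage than in MC (0.56, adjusted p = 0.038) in Fgfr2+/S252W embryos.

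Wwtr1 was highest in condylar cartilage in both genotypes. It reached 37.8, 35.2 and 34.1 FPKM there in Fgfr2+/+ embryos and 41.5, 34.7 and 26.1 FPKM in Fgfr2+/S252W embryos. In bone it was 14.8, 12.6 and 11.3 FPKM and 11.5, 9.82 and 10.96 FPKM, so the tissues did not overlap. In MC it was 13.9, 25.5 and 17.6 FPKM and 21.2, 20.6 and 16.2 FPKM, between the other two tissues on average. The level in bone was 2.80-fold below that in condylar cartilage in Fgfr2+/+ embryos (log2 difference -1.48, SE 0.19, adjusted p = 4.04e-06) and 3.15-fold below in Fgfr2+/S252W embryos (-1.66, SE 0.19, adjusted p = 1.08e-06). Condylar cartilage was above MC by 0.99 in Fgfr2+/+ (SE 0.20, adjusted p = 0.00042) and by 0.82 in Fgfr2+/S252W embryos (SE 0.20, adjusted p = 0.0029). Bone was below MC in Fgfr2+/S252W embryos (-0.84, SE 0.21, adjusted p = 0.0035), while in Fgfr2+/+ embryos the difference of -0.49 (SE 0.21) gave an adjusted p of 0.073 by limma and 0.048 by edgeR.

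Of the 10 genes, Tead2 and Tead3 had the widest ranges of group means (6.37-fold and 6.44-fold), while Tead1 varied 2.19-fold. Tead2 was low in condylar cartilage, with 1.22, 1.06 and 1.82 FPKM in Fgfr2+/+ and 1.18, 1.44 and 2.99 FPKM in Fgfr2+/S252W embryos. In bone it was 8.29, 6.995 and 8.44 FPKM and 8.76, 7.94 and 7.16 FPKM, and in MC 9.13, 7.95 and 9.07 FPKM and 5.59, 9.81 and 10.6 FPKM. Every bone and MC library was above every condylar library. Bone was 5.94-fold above condylar cartilage in Fgfr2+/+ (log2 difference 2.57, SE 0.32, adjusted p = 2.19e-06) and 4.92-fold above in Fgfr2+/S252W embryos (2.30, SE 0.30, adjusted p = 4.08e-06). MC was above condylar cartilage by 6.59-fold and 5.04-fold (adjusted p = 1.67e-06 and 8.52e-06), and bone and MC differed by -0.15 (SE 0.23, 95% interval -0.64 to 0.34) and -0.03 (SE 0.24, -0.53 to 0.46).

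Tead1 was highest in MC, where it was 7.82, 11.8 and 11.2 FPKM in Fgfr2+/+ and 12.3, 14.5 and 12.01 FPKM in Fgfr2+/S252W embryos. In condylar cartilage it was 4.997, 6.38 and 6.33 FPKM and 6.11, 8.15 and 6.52 FPKM, lower than MC by limma in both genotypes (log2 difference -0.76, SE 0.18, adjusted p = 0.0016, and -0.90, SE 0.17, adjusted p = 0.00032). In bone it was 8.71, 8.18 and 7.16 FPKM in Fgfr2+/+ and 7.61, 7.85 and 7.11 FPKM in Fgfr2+/S252W embryos. Bone was below MC in Fgfr2+/S252W embryos (-0.77, SE 0.17, adjusted p = 0.0012). In Fgfr2+/+ embryos the difference was -0.31 (SE 0.17, adjusted p = 0.16), and -0.51 (adjusted p = 0.022) without replicate 1 of Fgfr2+/+ MC. Bone was above condylar cartilage in Fgfr2+/+ embryos (0.45, SE 0.17, adjusted p = 0.044), which was lost with edgeR (0.065), with DESeq2 (0.064), with RLE factors (0.054), with the filterByExpr filter (0.060) and without replicate 1 or 2 of bone or any 1 of the condylar libraries (0.055 to 0.21). In Fgfr2+/S252W embryos that difference was 0.13 (SE 0.17, adjusted p = 0.60).

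Tead3 was the least abundant of the 10 genes, at 13 to 76 fragments per library. In MC it was 1.33, 2.86 and 2.18 FPKM in Fgfr2+/+ and 3.38, 4.12 and 2.80 FPKM in Fgfr2+/S252W embryos. In bone it was 1.63, 0.90 and 0.85 FPKM and 0.82, 0.74 and 0.89 FPKM, and in condylar cartilage 0.45, 0.75 and 1.08 FPKM and 0.36, 0.69 and 0.55 FPKM. MC was the highest tissue, without overlap in Fgfr2+/S252W embryos. There MC was 4.14-fold above bone (log2 difference of bone over MC -2.05, SE 0.36, adjusted p = 0.00016) and 6.57-fold above condylar cartilage (-2.72, SE 0.45, adjusted p = 6.13e-05). In Fgfr2+/+ embryos condylar cartilage was below MC by -1.41 (SE 0.43, adjusted p = 0.011), a call lost in the fit of only the libraries compared (0.062) and without replicate 1 of Fgfr2+/+ condylar cartilage (0.074). The difference between bone and MC was -0.81 (SE 0.38, adjusted p = 0.10) in Fgfr2+/+ embryos. Without replicate 1 of Fgfr2+/+ MC, which was low in chondrocyte markers, 5 of the 9 genes passed between bone and MC in Fgfr2+/+ embryos instead of 2, with Wwtr1, Tead1 and Tead3 added.

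**Figure D2:**
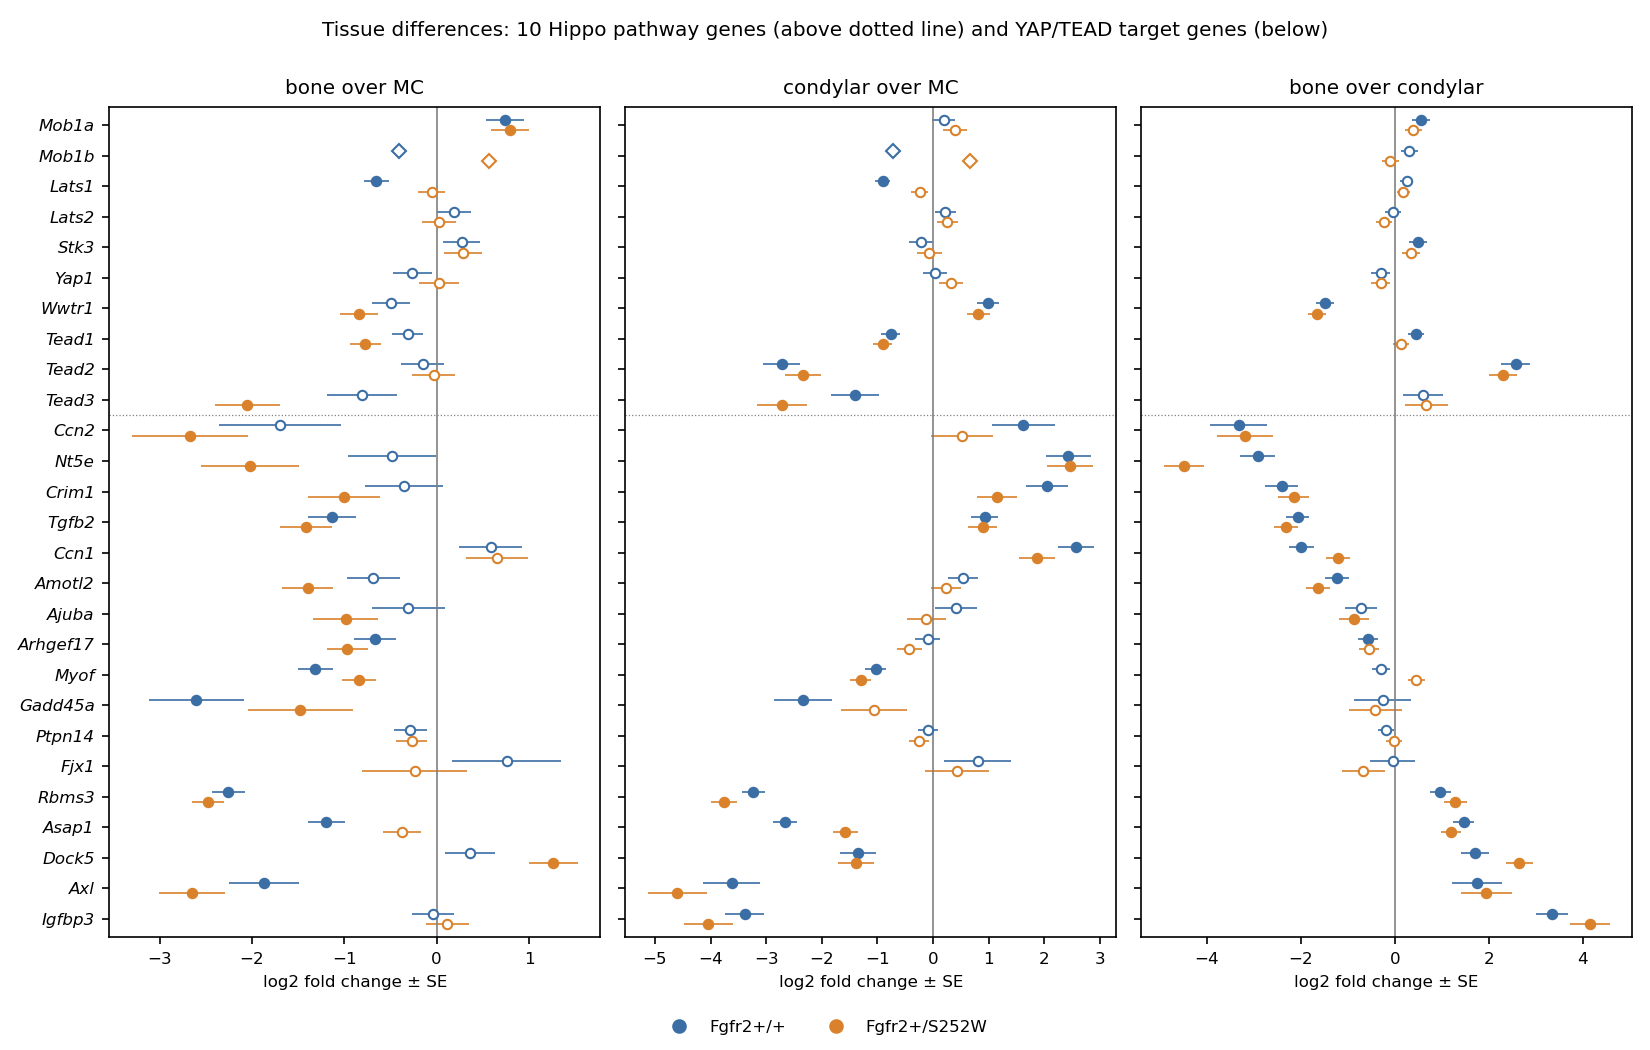
Log2 fold change between tissues (points, with SE whiskers) of the 10 genes and of YAP/TEAD target genes in Fgfr2+/+ and Fgfr2+/S252W embryos; filled points passed an adjusted p of 0.05 and diamonds, for Mob1b against MC, are untested. Tead2 is above 2 on the log2 scale in bone over condylar cartilage in both genotypes and Wwtr1 below -1.4.

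The genotype comparison in bone and in condylar cartilage did not use the contrast that chose the genes. None of the 10 genes passed in bone by limma, edgeR or DESeq2, where 0.0872% of the 11469 genes passed by limma. The count stayed 0 in all settings run, in which between 0% (without replicate 1 of Fgfr2+/+ bone) and 5.14% (with quality weights) of all genes passed. In bone 0 had an unadjusted p below 0.05, against 8.13% of all genes. In condylar cartilage 0 of 10 passed by limma, edgeR or DESeq2, where 0% of all genes passed by limma, and 0 had an unadjusted p below 0.05, against 3.06% of all genes. The differences in bone lay between -0.40 (Tead3, SE 0.37) and 0.15 (Yap1, SE 0.20) and in condylar cartilage between -0.47 (Tead3, SE 0.50) and 0.27 (Tead2, SE 0.38). For Mob1b the 95% interval was -0.70 to 0.025 in bone and -0.33 to 0.47 in condylar cartilage. For Lats1 it was -0.26 to 0.30 and -0.21 to 0.39. Yap1 in bone was the 1 gene of 10 whose bone groups did not overlap (13.6 to 14.9 FPKM in Fgfr2+/+ and 15.1 to 15.9 FPKM in Fgfr2+/S252W embryos), where 20.4% of all genes did not overlap. In condylar cartilage it was Mob1a (20.9 to 22.7 against 23.3 to 24.0 FPKM), where 9.77% did not. The difference of the genotype effects between bone and condylar cartilage passed in 0 of 10 genes, as in 0% of all genes, with 0 of 10 at an unadjusted p below 0.05 against 3.00% of all genes. For Mob1b this difference was -0.40 (SE 0.26). Of the marker lists, 3 had summed levels in bone that did not overlap between genotypes. Osteoclast markers were 958.5 to 1250 CPM in Fgfr2+/+ and 1810 to 2511 CPM in Fgfr2+/S252W bone, erythroid markers 1281 to 1528 and 323.1 to 614.3 CPM, and perichondrium and tendon markers 735.3 to 1280 and 507.3 to 674.6 CPM. Of single markers tested 1 passed by limma, the macrophage marker Lyz2, named after its values were seen, which was lower in Fgfr2+/S252W bone (-1.47, SE 0.28, adjusted p = 0.048). The median log2 difference was -1.57 over 4 macrophage markers, but these did not move together. C1qb, C1qc and Lyz2 were lower in Fgfr2+/S252W bone, while Cd68 was higher (means 47.8 and 91.9 FPKM). The summed levels of the macrophage list overlapped (108.3 to 133.4 and 121.4 to 147.5 CPM). Over 3 skeletal muscle markers the median was -3.62 (summed level of the list 26.8 to 233.4 and 1.28 to 29.3 CPM). By limma an unadjusted p below 0.05 was reached by all 3, by 3 of 4 macrophage and by 5 of 5 osteoclast markers. It was also reached by 5 of 5 erythroid and 2 of 2 perichondrium and tendon markers. The part of these markers in the genotype values was not tested.

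**Figure D3:**
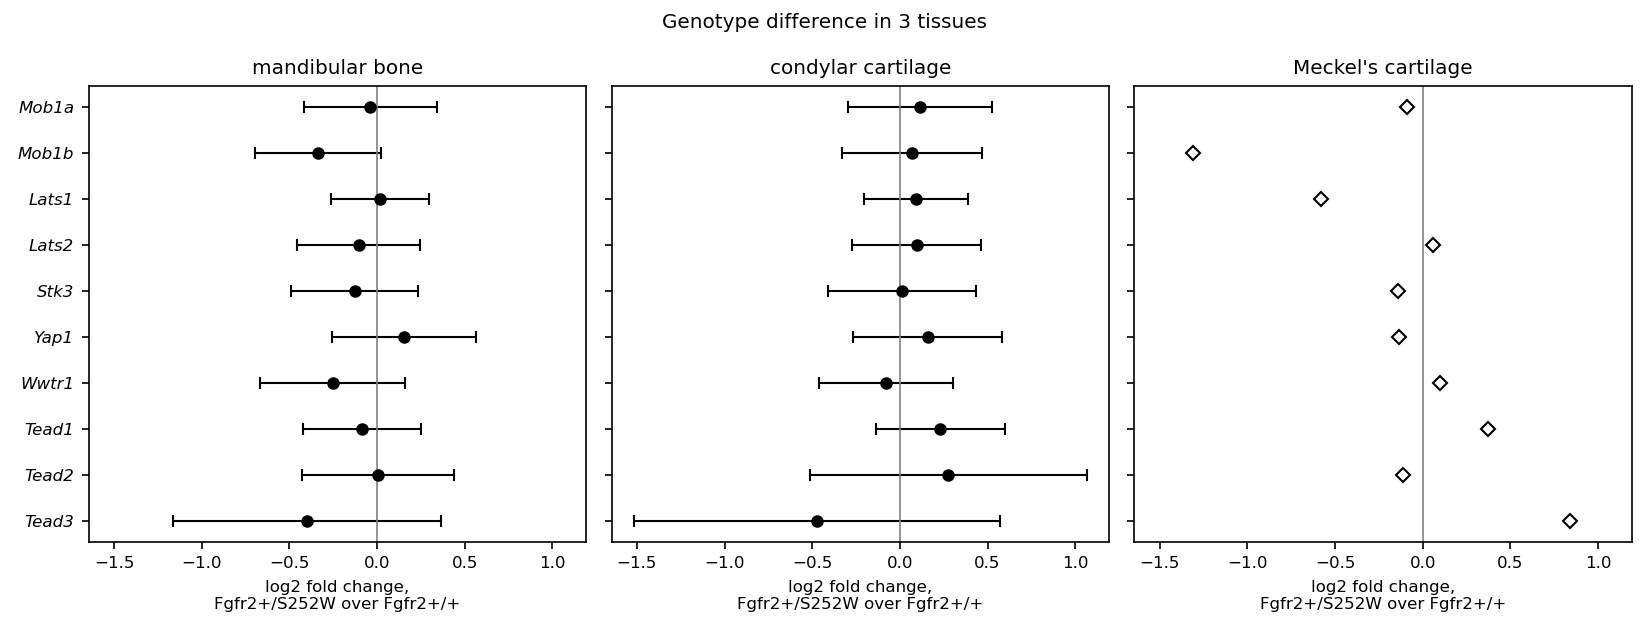
Log2 fold change of Fgfr2+/S252W over Fgfr2+/+ for the 10 genes in bone, condylar cartilage and MC; filled circles carry 95% intervals, and open diamonds in MC are descriptions without a test because that contrast chose the genes. All intervals in bone and condylar cartilage include 0, and Mob1b in MC stands at -1.31.

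Within families, the shares of Wwtr1, Tead1, Tead2 and Lats2 differed between bone and condylar cartilage in the same direction in 6 of 6 embryos, but no share difference passed the paired test after adjustment. Levels per length were summed over a family in each library, and the share of each paralog was compared between the tissues of the same embryo. Wwtr1 made up 44.2% ± 4.6 (SD, n = 6 libraries) of Yap1 and Wwtr1 in bone, 65.7% ± 2.4 in condylar cartilage and 54.3% ± 10.2 in MC. Its share was lower in bone than in condylar cartilage in 6 of 6 embryos, by between -24.6 and -14.3 points. Tead2 made up 47.6% ± 3.2 of the 3 TEAD genes in bone, 18.4% ± 6.1 in condylar cartilage and 38.0% ± 8.0 in MC, and Tead1 46.6% ± 2.6, 74.2% ± 6.2 and 50.2% ± 5.0 in the same order. The bone share of Tead2 exceeded the condylar share in 6 of 6 embryos (mean difference 29.2 points). Tead3 was at most 15.9% in any library and averaged 11.8% ± 3.2 in MC. The share of Lats2 among the LATS kinases was 45.0% ± 4.0 in bone and 51.1% ± 3.2 in condylar cartilage, and in MC 32.6% ± 4.4 in Fgfr2+/+ and 42.4% ± 5.0 in Fgfr2+/S252W embryos (n = 3). It was lower in bone than in condylar cartilage in 6 of 6 embryos.

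A sign-flip permutation test over 6 embryos cannot give a two-sided exact p below 0.031, and 7 of 16 share differences reached it, with an adjusted p of 0.071. These were Wwtr1, Tead1, Tead2 and Lats2 between bone and condylar cartilage and Tead1, Tead2 and Lats2 between condylar cartilage and MC. None of the 16 therefore passed after adjustment in the paired test. In an exact unpaired permutation test of 6 against 6 libraries 12 of the 16 passed, with adjusted p from 0.0087 to 0.046. That test leaves out that both sets of libraries come from the same 6 embryos. The shares of Tead1, Tead2 and Tead3 add up to the whole, so their differences are not separate results. The share of Mob1b in the MOB1 pair was 13.2% ± 1.5 in Fgfr2+/S252W bone, 16.0% ± 4.0 in Fgfr2+/+ bone, 17.5% ± 0.83 and 18.1% ± 0.73 in condylar cartilage, and 15.1% ± 0.70 and 30.2% ± 7.0 in MC (SD, n = 3), and it differed between bone and condylar cartilage by -3.20 points on average, with 5 of 6 embryos lower in bone (exact permutation p = 0.094, adjusted 0.12).

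**Figure D4:**
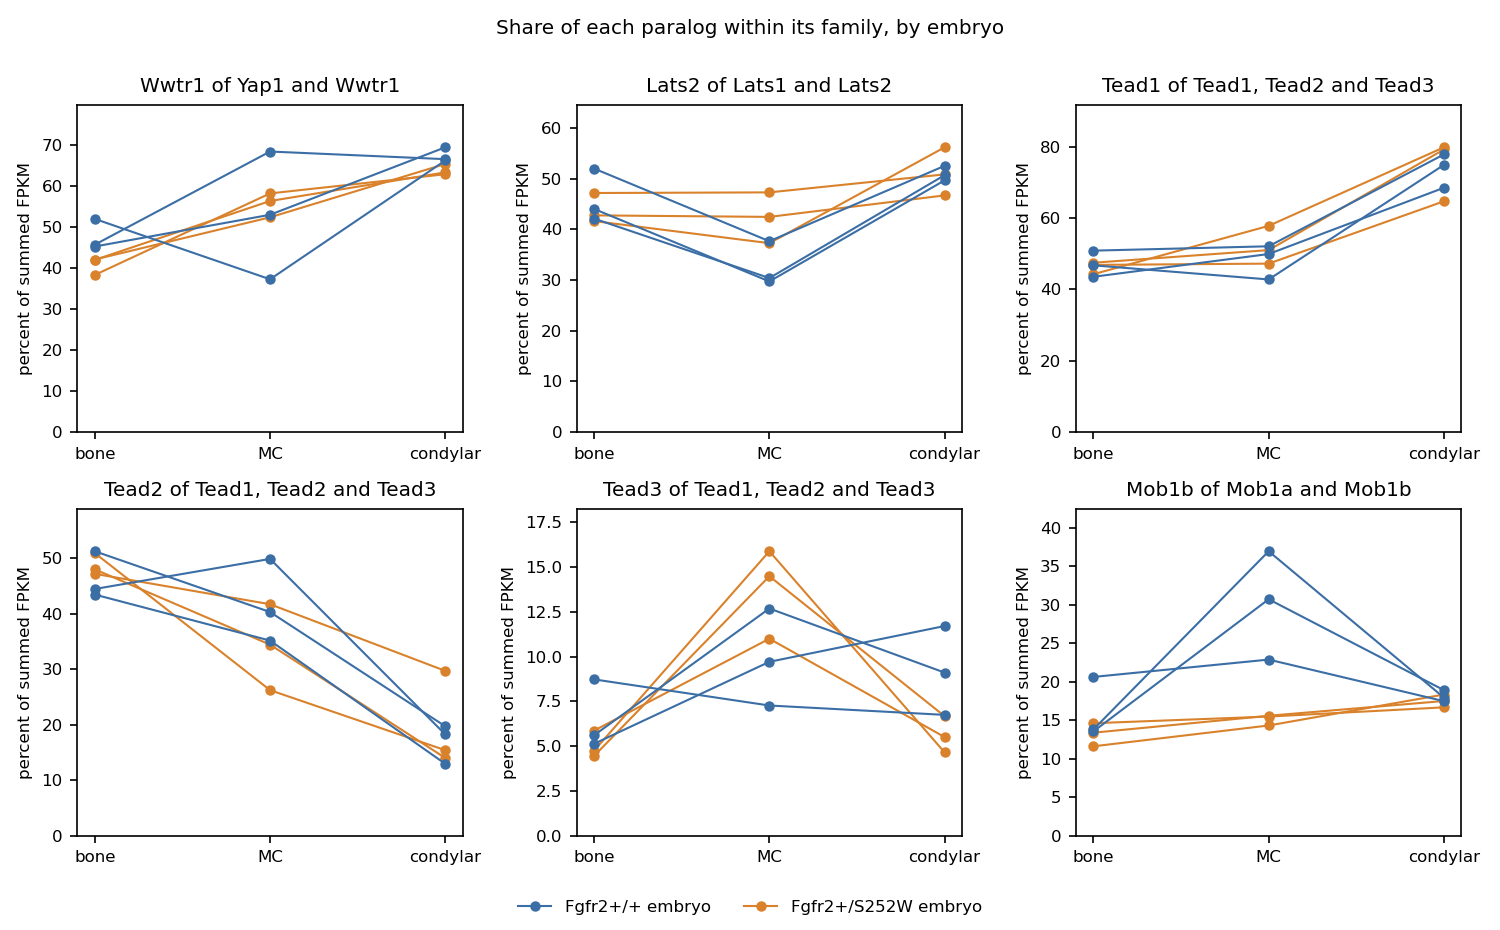
Share of a paralog in the summed FPKM of its family (percent, axis from 0) in bone, MC and condylar cartilage, with lines joining the libraries of 1 embryo. The Wwtr1 share rises from bone (38.3% to 52.0%) to condylar cartilage (62.9% to 69.5%) and the Tead2 share falls (43.5% to 51.3% against 13.0% to 29.7%) in all 6 embryos.

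Of the other genes of the pathway, 42 were listed and 37 passed the filter. They include the partner kinases and scaffolds (Stk4, Sav1, Nf2, the MAP4K and TAO kinases, the NDR kinases Stk38 and Stk38l, and further MOB genes), inhibitors and adaptors of the angiomotin, Ajuba and striatin families, the cell-surface cadherins Fat1, Fat4 and Dchs1, and cofactors of TEAD. Between bone and condylar cartilage 9 of 37 were higher in bone and 7 lower in Fgfr2+/+ embryos, beside 19.4% and 18% of all genes, and 8 and 6 in Fgfr2+/S252W embryos, beside 16.6% and 15.3%. The median log2 difference was 0.07 and -0.04, beside 0.0047 and 0.0043 for all genes. Between bone and MC 3 were higher in bone and 8 lower in Fgfr2+/+ embryos (18.1% and 15.9% of all genes) and 8 and 9 in Fgfr2+/S252W embryos (19.5% and 18.8%). Between condylar cartilage and MC 8 were higher in condylar cartilage and 9 lower in Fgfr2+/+ embryos (22.9% and 22.1%), and 9 and 10 in Fgfr2+/S252W embryos (21.3% and 21.3%). The genotype comparison called 0 of 37 in bone by limma, edgeR and DESeq2 (7 at an unadjusted p below 0.05 by limma, beside 8.13% of all genes), and 0 in condylar cartilage by the same tools (3 unadjusted, beside 3.06%). With weights for library quality 2 were higher and 1 lower in bone, where 5.14% of all genes then passed. Some tissue counts moved with the setting. Between bone and MC in Fgfr2+/+ embryos 1 was higher and 4 lower with only the libraries compared, 1 and 7 with quality weights, and of 42 genes kept 5 and 8 with the filterByExpr filter and 5 and 5 without a filter beyond 1 count. With single libraries left out 1 was higher without replicate 1 of bone, 4 were lower without replicate 2 of bone and 5 without replicate 2 of MC. Between bone and condylar cartilage 4 were lower in Fgfr2+/+ embryos without replicate 2 of bone or any 1 condylar library, and 3 in Fgfr2+/S252W embryos without replicate 1 or 2 of bone.

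Stk38l, an NDR kinase that MOB adaptors also bind, had the largest difference of the list between bone and condylar cartilage. It averaged 26.2 ± 2.8 FPKM in Fgfr2+/+ and 18.6 ± 1.9 FPKM in Fgfr2+/S252W condylar cartilage (SD, n = 3), against 1.51 ± 0.20 and 1.55 ± 0.15 FPKM in bone and 3.60 ± 1.68 and 4.35 ± 1.05 FPKM in MC. Bone was lower than condylar cartilage by -4.11 (SE 0.24, adjusted p = 1.21e-10) and -3.58 (SE 0.22, adjusted p = 3.37e-10) on the log2 scale. Mob2, a MOB adaptor of the NDR kinases, was also lower in bone than in condylar cartilage (-1.04 and -1.59, adjusted p = 0.0046 and 0.00019). Amot, an angiomotin that binds Yap1 and holds it outside the nucleus, was 1.78 ± 0.22 and 2.99 ± 0.28 FPKM in condylar cartilage, 11.1 ± 2.0 and 8.72 ± 0.43 FPKM in bone and 13.5 ± 1.7 and 13.5 ± 1.6 FPKM in MC. It was higher in bone than in condylar cartilage by 2.63 and 1.56 (adjusted p = 3.10e-09 and 7.92e-07). Amotl2, of the same family, went the other way (-1.23 and -1.64, adjusted p = 0.00078 and 3.42e-05).

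The atypical cadherins Fat4 and Dchs1, which bind each other between cells, were highest in MC on average, and Fat1 was not. Fat4 averaged 35.2 ± 3.4 and 49.3 ± 3.0 FPKM in Fgfr2+/+ and Fgfr2+/S252W MC, 15.1 ± 4.0 and 18.3 ± 1.8 FPKM in bone and 4.68 ± 1.47 and 5.93 ± 2.59 FPKM in condylar cartilage. Dchs1 averaged 14.9 ± 2.9 and 18.9 ± 3.2 FPKM in MC, 7.76 ± 1.03 and 8.85 ± 0.41 FPKM in bone and 4.498 ± 1.88 and 4.72 ± 1.80 FPKM in condylar cartilage. Both were lower in condylar cartilage than in MC by limma in both genotypes (Fat4 -2.96 and -3.18, adjusted p = 1.65e-08 and 7.23e-09; Dchs1 -1.79 and -2.11, adjusted p = 2.16e-05 and 3.49e-06). Fat1 averaged 35.4 and 20.5 FPKM in MC, 44.2 and 59.6 FPKM in bone and 53.8 and 65.2 FPKM in condylar cartilage, and was higher in condylar cartilage than in MC in Fgfr2+/S252W embryos (1.64, SE 0.31, adjusted p = 0.00024) and at an adjusted p of 0.081 in Fgfr2+/+ embryos (0.66, SE 0.30). Mink1, a MAP4K-like kinase, was higher in MC than in bone (log2 difference of bone over MC -1.73 and -1.80, adjusted p = 0.00033 and 5.15e-05), and Map4k3 was higher in bone than in condylar cartilage (1.61 and 1.78, adjusted p = 9.98e-07 and 1.78e-07). Strn, a striatin scaffold of a phosphatase that acts on MST kinases, was higher in bone than in MC (0.76 and 0.98, adjusted p = 0.0053 and 0.00065). Tead4, the remaining TEAD gene, named after its values were seen, did not pass the filter, at 1.61 ± 0.10 and 1.37 ± 0.26 FPKM in condylar cartilage and 0.14 to 0.68 FPKM on average in the other groups.

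Known target genes of Yap1, Wwtr1 and TEAD were called in both directions in the comparisons with condylar cartilage. Of 21 listed besides Lats2, 4 of which are also in the pathway list, 17 passed the filter. Between bone and condylar cartilage 5 were higher in bone and 7 lower in both genotypes (19.4% and 18% of all genes in Fgfr2+/+, 16.6% and 15.3% in Fgfr2+/S252W embryos), with a median log2 difference of -0.29 in Fgfr2+/+ and -0.54 in Fgfr2+/S252W embryos beside 0.0047 and 0.0043 for all genes. Between bone and MC 0 were higher in bone and 7 lower in Fgfr2+/+ embryos (10 not called, median -0.67 beside 0.022 for all genes, of which 18.1% were higher and 15.9% lower), and 1 was higher and 11 lower in Fgfr2+/S252W embryos (median -0.99 beside 0.022, with 19.5% and 18.8% of all genes). Between condylar cartilage and MC 5 were higher in condylar cartilage and 7 lower in Fgfr2+/+ embryos (22.9% and 22.1% of all genes), and 4 and 6 in Fgfr2+/S252W embryos (21.3% and 21.3%).

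The matricellular protein genes Ccn1 and Ccn2 were among those higher in condylar cartilage than in bone. Ccn1 averaged 57.8 ± 1.8 and 43.0 ± 11.9 FPKM in condylar cartilage, 15.1 ± 4.8 and 18.1 ± 3.4 FPKM in bone and 10.96 ± 6.0 and 11.6 ± 3.0 FPKM in MC, and was lower in bone than in condylar cartilage by -1.99 and -1.22 (SE 0.26 and 0.25, adjusted p = 5.07e-06 and 0.00084). Ccn2 averaged 75.7 ± 46.8 and 60.0 ± 21.8 FPKM in condylar cartilage and 6.84 ± 1.34 and 6.42 ± 1.48 FPKM in bone (-3.32 and -3.19, adjusted p = 0.00021 and 0.00029). In MC it averaged 37.4 ± 29.3 and 41.8 ± 12.5 FPKM, and condylar cartilage over MC was 1.63 in Fgfr2+/+ (SE 0.57, adjusted p = 0.025) and 0.52 in Fgfr2+/S252W embryos (SE 0.55, adjusted p = 0.48). Nt5e, a nucleotidase, Crim1, a transmembrane BMP regulator, and Tgfb2, a growth factor, were lower in bone as well (Nt5e -2.92 and -4.49, Crim1 -2.41 and -2.16, Tgfb2 -2.07 and -2.31). The receptor kinase Axl stood lowest in condylar cartilage, at 1.43 ± 0.60 and 1.26 ± 0.49 FPKM against 21.2 ± 12.3 and 29.2 ± 1.3 FPKM in MC (-3.62 and -4.60, adjusted p = 1.10e-05 and 1.03e-06). Igfbp3, which binds insulin-like growth factors, was higher in bone than in condylar cartilage by 3.35 and 4.15 (adjusted p = 2.07e-07 and 1.78e-07). The genotype comparison called 0 of 17 targets in bone by limma, edgeR and DESeq2 (4 at an unadjusted p below 0.05 by limma, beside 8.13% of all genes) and 0 in condylar cartilage by the same tools (1 unadjusted, beside 3.06%). In bone 2 were higher and 1 lower with weights for library quality (5.14% of all genes passed), and 1 was higher without replicate 3 of Fgfr2+/+ bone (0.811%), with only the libraries compared (1.14%) and without a filter beyond 1 count (0.205%).

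Start-site windows of these genes were read for the core motif of TEAD binding, GGAATG or its reverse complement CATTCC on the other strand, as sequence context for the targets. The windows are those of RefSeq on GRCm38.p6, 250 bases before to 50 after a start. Of 27025 genes with a window 16.6% held the motif, and 14.7% of the 32851 windows. Of the 10 pathway genes 8 had a window and 5 of these held the motif (Lats2, Mob1a, Tead3, Wwtr1 and Yap1). Of the target genes, Lats2 included, 16 had a window and 8 of these held it. Tead3 and Crim1 also held motifs before the start, which are not shown, and Ccn2 had no window. For some of the genes, stretches of 30 bases around a motif before the start are shown on the strand of the gene, with the motif in capitals.
Mob1a: tggccagaatagCATTCCtttaggagaaga
Yap1: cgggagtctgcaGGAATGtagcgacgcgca
Wwtr1: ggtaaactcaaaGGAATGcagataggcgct
Ccn1: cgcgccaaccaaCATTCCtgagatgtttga
Axl: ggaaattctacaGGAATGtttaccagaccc
They lie at chr6:83325818-83325847 (Mob1a), chr9:8004720-8004749 (Yap1), chr3:57576029-57576058 (Wwtr1), chr3:145650071-145650100 (Ccn1) and chr7:25788949-25788978 (Axl), the motif starting 209, 141, 136, 103 and 233 bases before the start. Ccn1, high in condylar cartilage, and Axl, low there, both held it. Mob1b had a window without these letters. A match describes the letters only and no binding was measured.

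The genes whose level followed Mob1b most closely over the 18 libraries were Lsm3, an RNA-binding Sm-like protein gene (Pearson r = 0.89 of log2 CPM), Naa30, an N-terminal acetyltransferase subunit (0.88), Gm9892 (0.85), Smco4 (0.85) and Ireb2, an iron-responsive RNA-binding protein gene (0.84), out of 11468 genes compared. They share libraries, depth and the low Fgfr2+/S252W MC level, so these values are descriptions. Ireb2 averaged 17.96 ± 2.1 FPKM in Fgfr2+/+ and 9.59 ± 1.77 FPKM in Fgfr2+/S252W MC, and Lsm3 17.9 ± 4.6 and 6.93 ± 1.92 FPKM. Within the pathway Lats1 ranked 450 (0.49), Stk3 907 (0.39) and Mob1a 2583 (0.19), and Lats2, the lowest of the other 9, ranked 8848 (-0.19).

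Fgfr2, the mutated gene, was transcribed in every group, with means of 43.1 and 41.8 FPKM in Fgfr2+/+ and Fgfr2+/S252W bone, 80.2 and 63.8 FPKM in MC and 20.9 and 26.1 FPKM in condylar cartilage. Its genotype differences passed neither in bone nor in condylar cartilage by limma (log2 differences -0.02, SE 0.23, and 0.31, SE 0.25). In MC, given as a description, the difference was -0.31 (SE 0.24). The total level of a gene does not check a label that stands for a single base change.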

How the data were processed

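Gene expression was measured in 18 libraries from laser-captured mandibular tissue of 6 mouse embryos, in 6 groups of 3 by genotype and tissue. The deposited counts are fragments per gene, which the authors made by mapping paired reads of 100 bases to mm10 with STAR and counting them on Ensembl 75 exons with featureCounts 1.5.0-p1, without strand and without normalization. The 10 genes and the lists were chosen with earlier results of these data known. The fit followed the steps of the study's methods: the filter asked for more than 1 FPKM in 9 or more libraries (50%), TMM factors and voom weights computed, and a limma model with 1 mean per group fitted to all 18 libraries (limma 3.58.1, R 4.3.3), with Benjamini-Hochberg adjustment over 11469 genes and a threshold of 0.05. The paper describes bone and MC only, and whether its fit held the condylar libraries is not stated. The paper reports more called genes in bone, Acp5, Ctsk and Itgb3 among them, beside osteoclast staining and in situ hybridization. Here 10 genes passed in bone, none of them a listed osteoclast marker, and 141 of 12322 with only the bone libraries. The cause of the gap was not tested. For the filter FPKM were computed from the counts, total counts and exon lengths; the CPM and FPKM printed are instead relative to the total of the kept genes times the TMM factor. Alternatives used edgeR 4.0.16 and DESeq2 1.42.0, other scalings, filters and weights, blocks, and single libraries left out; leaving out replicate 3 of Fgfr2+/+ bone and replicate 2 of Fgfr2+/+ MC together was chosen after seeing the data. Paralog shares were compared within embryos by an exact sign-flip permutation test, two-sided, over 16 differences (scipy 1.17.1).

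Replicate numbers of the 2 genotypes did not pair the libraries (mean correlation of deviations 0.091 in bone, 0.145 in condylar cartilage and -0.102 in MC). Tissues of 1 embryo, tied by the library codes, correlated at -0.017 to 0.024 on average. Total counts were 8218548 to 15585778 per library, and a count limits precision by counting error only. The limma p-values rest on 1 estimate of spread per gene, shared by all 6 groups and moderated over all genes. They do not measure the spread of the compared libraries alone. The median spread within groups was 0.218 in bone and 0.480 in MC, so a test in bone also holds the spread of MC. The scripts were tested on simulated data. Named genes were the 10 members, up to 4 per direction and contrast with the largest change among called genes of the pathway and target lists, the 5 genes most correlated with Mob1b, and Fgfr2. MC genotype differences, and Mob1b against MC, are given as descriptions without p-values.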

Additional observations from a re-analysis of the deposited data

Results flagged for a closer look

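The tissue difference of Mob1b had opposite signs in the genotypes in every embryo. Bone minus MC was -0.087, -0.16 and -0.92 on the log2 scale in the Fgfr2+/+ embryos and 0.57, 0.49 and 0.61 in the Fgfr2+/S252W embryos, and the means differed by 0.95. Condylar cartilage minus MC was -0.90, -0.44 and -0.75 in the Fgfr2+/+ embryos and 0.92, 0.55 and 0.46 in the Fgfr2+/S252W embryos, and the means differed by 1.34. The difference was not tested in either case, since it rests on the MC values of Mob1b by which the genes were chosen, and both comparisons share the MC libraries.

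The Wwtr1 share of Yap1 and Wwtr1 differed between bone and condylar cartilage by -14.3 points in Fgfr2+/+ embryo 1, apart from the other 5 embryos, all of which were further below 0. It was the only one set apart of 16 share differences examined, and chance sets apart about 1 in 20 such groups.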

How the results depend on the processing

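Of the 22 called values of the 10 genes, recomputed with 1 library left out at a time, 118 of 132 kept direction and threshold, 14 were lost and 0 reversed, and under the other alternatives 196 of 210 kept both, 14 were lost and 0 reversed. The number of genes past the threshold between bone and condylar cartilage in Fgfr2+/+ embryos was 5, against 2 with edgeR, 2 with DESeq2, 3 with RLE factors, 3 with the filterByExpr filter, and 2 to 6 with 1 library left out. Between bone and MC in Fgfr2+/+ embryos it was 2, against 3 with edgeR, 3 with DESeq2, 1 with only the libraries compared, and 2 to 5 with 1 library left out. Between bone and condylar cartilage in Fgfr2+/S252W embryos it was 2, against 4 with quality weights, and between condylar cartilage and MC in these embryos 4, against 6. In the genotype contrast in MC, which helped to choose the genes, it was 0 of the 9 genes other than Mob1b, against 1 with DESeq2, where 3.69% of all genes passed instead of 0%, and nothing is read from these counts. The cause was not tested. Without a filter beyond 1 count the median of all genes shifted by up to 0.20 on the log2 scale, and under every other alternative by less.

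With the replicate number as a block the genotype comparisons in bone and in condylar cartilage called 0 of the 10 genes, as without it, and 7 genes of all in bone against 10. The paralog shares were tested within embryos, a pairing that the unpaired test leaves out. With no replicate block, as 6 against 6 libraries, 12 of the 16 differences passed in an exact permutation test (adjusted p from 0.0087 to 0.046): for Wwtr1 11.4 points in condylar cartilage minus MC and -21.4 in bone minus condylar cartilage, for Lats2 13.6 and -6.16, for Tead1 24.1 and -27.6, for Tead2 9.60 in bone minus MC, -19.6 and 29.2, for Tead3 -6.07 in bone minus MC and -4.44 in condylar cartilage minus MC, and for Mob1b -3.20 in bone minus condylar cartilage. Depth limits Tead3 most, at 13 to 76 fragments per library.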
